A study of Rattus norvegicus with 12 samples.

Results

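The enzymes and the chaperone that hydroxylate, fold and crosslink collagen were followed here through 3 zones of young rat cartilage. The group held 10 genes, namely the lysyl hydroxylases Plod1, Plod2 and Plod3, the prolyl 4-hydroxylase subunit P4ha3, the collagen chaperone Serpinh1, and the lysyl oxidases Lox, Loxl1, Loxl2, Loxl3 and Loxl4. They were chosen by gene symbol, with the brightest transcript cluster of each symbol to be used, out of 14300 genes that the array annotation names. Each of the 10 symbols had exactly 1 cluster, which is a group of probes along a transcript that is summarised as a single value.

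RNA came from cartilage of the proximal tibia of 10-day-old Sprague-Dawley rats, for which the labels name no treatment, cut by hand from frozen sections and hybridized to Affymetrix Rat Gene 1.0 ST arrays. The superficial zone (SZ) and the intermediate/deep zone (IDZ) belong to articular cartilage, and the resting zone (RZ) belongs to growth plate cartilage. There were 4 arrays for each zone. Each SZ array came from 2 tibias of 1 animal, whereas each IDZ and RZ array pooled 4 tibias of 2 animals. The IDZ and RZ arrays with a given replicate number shared their animals, which were numbered 1 to 8, and SZ replicates 1 to 4 were taken from animals 5 to 8. Each sample is therefore a mixture of the cells in its slice, and fewer cells of a type and less RNA per cell cannot be told apart in any result below.

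Fibrillar collagen is made as a procollagen chain whose prolines and lysines are hydroxylated in the endoplasmic reticulum (ER) before the helix closes and is handed by its chaperone towards the Golgi. After secretion and trimming, lysyl oxidases turn lysines and hydroxylysines near the chain ends into aldehydes, which react with neighbouring chains and lock the fibril. Whether the end lysine was hydroxylated decides the kind of crosslink, and the hydroxylysine type is the one for which cartilage and bone are known, whereas lysyl oxidases also crosslink elastin.

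All values are log2 expression from the authors' robust multi-array average (RMA), and a difference of 1 on this scale is a 2-fold difference. Levels of different clusters were not set against each other, since probes differ in brightness. A difference passed where limma gave an adjusted p under 0.05, with p adjusted over all 27342 clusters. The 3 comparisons between zones share arrays, so their results are given side by side and are not independent of each other.

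Across the zones the 10 genes did not move as a block. Loxl1 fell from SZ through IDZ to RZ and P4ha3 peaked in IDZ, and these were the members whose zone means spanned at least 1 log2 unit. Plod2 was low in SZ and alike in IDZ and RZ. The promoters of these 3 genes are shown because their zone patterns carry most of what follows. The sequences are from RefSeq on the rat build GRCr8, running from 250 bases before the annotated start to 50 after it, at chr8:101964068-101964367 on the plus strand for Plod2, chr1:164040614-164040913 on the plus strand for P4ha3 and chr8:67612175-67612474 on the minus strand for Loxl1. Capitals mark each match, on either strand, to ACGTG or GCGTG, the cores of a hypoxia response element, and to GGGCGG, the GC box.
Plod2: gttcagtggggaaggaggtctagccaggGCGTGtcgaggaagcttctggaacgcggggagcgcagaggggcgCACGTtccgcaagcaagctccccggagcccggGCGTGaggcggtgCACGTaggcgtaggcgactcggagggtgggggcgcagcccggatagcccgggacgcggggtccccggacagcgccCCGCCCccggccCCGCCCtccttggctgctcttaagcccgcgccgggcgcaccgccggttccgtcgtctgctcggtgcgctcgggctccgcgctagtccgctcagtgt
P4ha3: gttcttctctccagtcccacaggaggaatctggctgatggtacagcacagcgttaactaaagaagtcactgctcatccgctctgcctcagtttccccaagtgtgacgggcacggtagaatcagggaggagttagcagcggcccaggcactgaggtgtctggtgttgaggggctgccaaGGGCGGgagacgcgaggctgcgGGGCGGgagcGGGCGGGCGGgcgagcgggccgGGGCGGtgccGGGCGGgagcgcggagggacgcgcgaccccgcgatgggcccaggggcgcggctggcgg
Loxl1: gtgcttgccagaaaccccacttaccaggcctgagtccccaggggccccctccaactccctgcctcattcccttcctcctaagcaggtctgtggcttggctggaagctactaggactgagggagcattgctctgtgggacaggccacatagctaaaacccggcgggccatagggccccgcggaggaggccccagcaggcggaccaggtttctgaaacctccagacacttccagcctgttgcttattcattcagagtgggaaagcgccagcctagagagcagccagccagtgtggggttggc
The Plod2 window held 4 hypoxia cores, which start at -222, -178, -146 and -133 from the annotated start, and 2 GC boxes at -58 and -46 on the opposite strand. In the P4ha3 window there were 6 GC boxes between -72 and -8, of which those at -40 and -36 overlap, and no hypoxia core. The Loxl1 window held neither motif. Of the 8 members with a promoter in the table, 4 held a hypoxia core (Plod1, Plod2, Plod3 and Loxl3) and 6 held a GC box (Plod1, Plod2, Plod3, P4ha3, Serpinh1 and Loxl4). Among all 33469 promoters of that length the shares were 41.6% and 33.1%. A match of letters is a description of the window and says nothing of binding.

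In the comparison of SZ with IDZ, the outer and inner layers of articular cartilage, 4 members were higher in IDZ (P4ha3, Plod2, Loxl3 and Plod1), 1 was higher in SZ (Loxl1), and 5 did not pass. Over all clusters, 11.2% passed as higher in IDZ and 11.8% as higher in SZ, and over the named genes 9.56% and 17.0%. The arrays of both zones did not overlap for 5 members with IDZ above SZ and for 1 with SZ above IDZ, against 12.1% and 10.2% of all clusters. The median difference of the 10 members, SZ minus IDZ, was -0.26, beside -0.08 over all clusters. With at least a 2-fold difference, which is the threshold of the study's methods, P4ha3 and Loxl1 passed. Over all clusters 0.977% passed it as higher in IDZ and 2.96% as higher in SZ.

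In the comparison of IDZ with RZ, inner articular cartilage against growth plate cartilage, 2 members were higher in IDZ (P4ha3 and Loxl1), and 2.78% of all clusters and 3.22% of named genes passed in that direction. By limma 0 members passed as higher in RZ, where 3.95% of all clusters and 5.58% of named genes did. At an unadjusted p under 0.05, 2 members were higher in RZ (Loxl2 and Loxl4), and plain one-way variances without moderation again passed 0. The share of all clusters at that unadjusted threshold was not counted. With animal pairs as a fixed block, fitted without the SZ arrays, 3 members passed as higher in IDZ (Lox in addition) and 1 as higher in RZ (Loxl2). The IDZ and RZ arrays alone with no block also gave 3 and 1. The part of the pairing thus cannot be told from that of leaving out SZ. With pairs as a random block over all arrays, 1 and 0 passed. The arrays did not overlap for 2 members with IDZ above RZ and for 1 with RZ above IDZ, against 9.08% and 11.1% of all clusters. The median difference of the members, IDZ minus RZ, was 0.02, beside 0.03 over all clusters. Loxl1 was the member past 2-fold, a threshold that 0.519% of all clusters passed as higher in IDZ and 0.399% as higher in RZ.

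In the comparison of SZ with RZ, 2 members were higher in SZ (Lox and Loxl1), 5 were higher in RZ (P4ha3, Plod2, Plod3, Loxl2 and Loxl4), and 3 did not pass. Of all clusters, 10.0% passed as higher in SZ and 11.1% as higher in RZ, and of named genes 14.5% and 12.2%. The arrays did not overlap for 1 member with SZ above RZ and for 4 with RZ above SZ, against 9.61% and 12.3% of all clusters. The median difference of the members, SZ minus RZ, was -0.39, beside -0.03 over all clusters. Loxl1 was again the member past 2-fold, which 3.19% of all clusters passed as higher in SZ and 1.35% as higher in RZ.

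**Figure D1:**
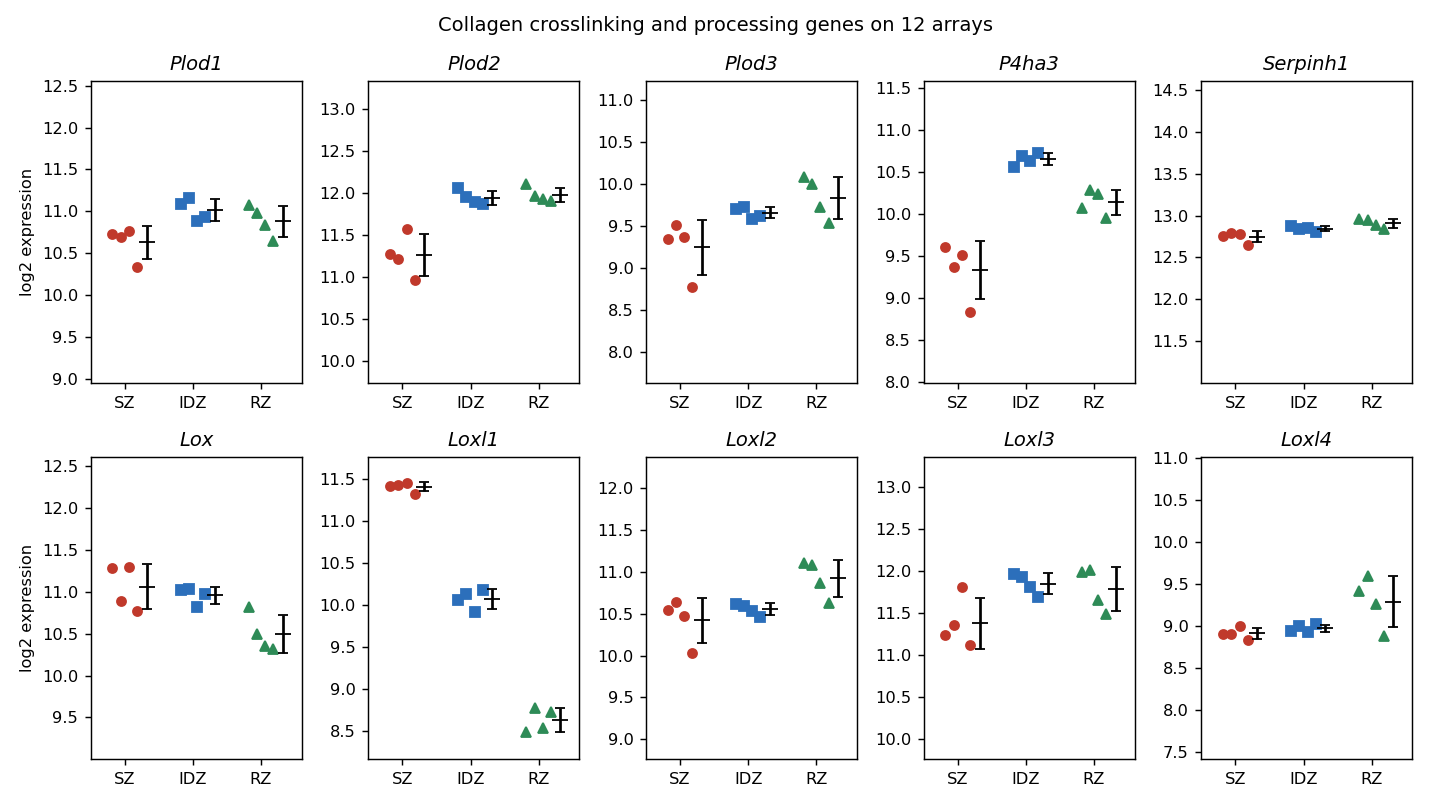
Log2 expression (vertical axis, the same span in every panel) of each of the 10 genes on the 12 arrays, grouped by zone (SZ, IDZ, RZ), with 1 symbol per array in order of replicate and the mean ± SD of the 4 arrays beside them. Loxl1 stepped down from SZ to IDZ to RZ with no overlap, P4ha3 was highest in IDZ, and the last SZ symbol was the lowest of its zone in every panel.

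**Figure D2:**
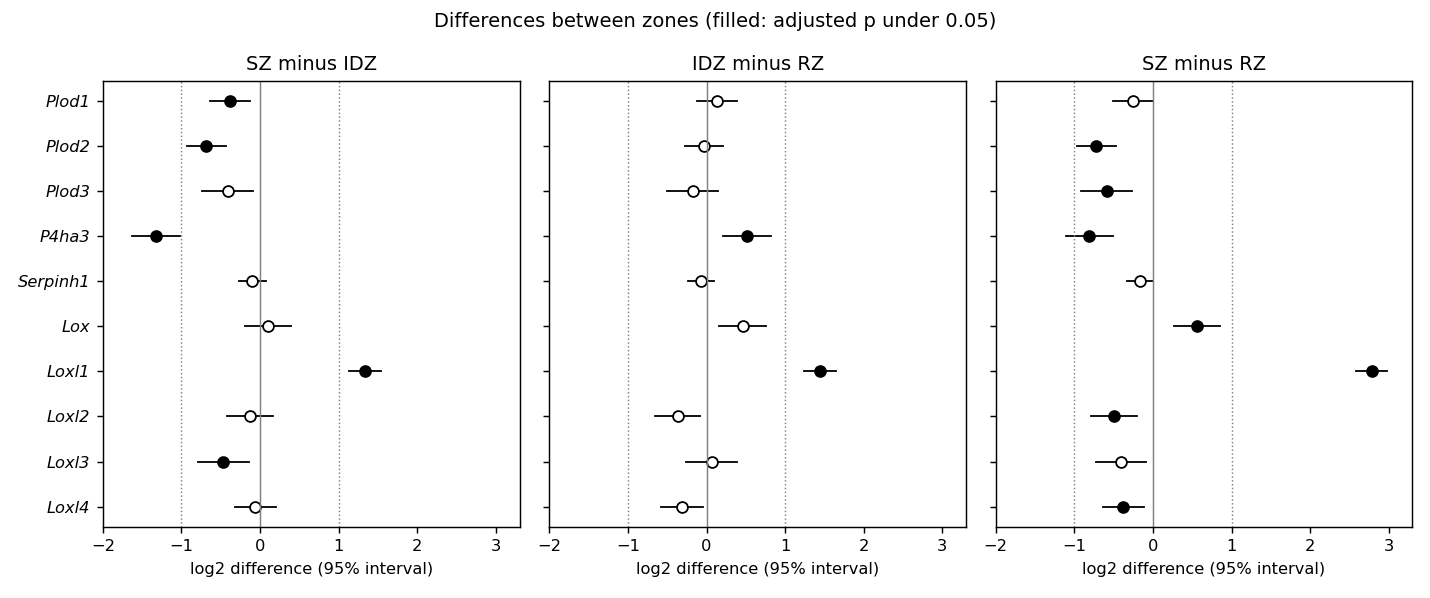
Difference between zones for each of the 10 genes (horizontal axis, log2, with the 95% interval), in a panel each for SZ minus IDZ, IDZ minus RZ and SZ minus RZ. Filled circles passed an adjusted p under 0.05 in limma and dotted lines mark 2-fold. Loxl1 lay beyond the dotted line in all 3 panels and P4ha3 in the first.

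Among the lysyl hydroxylases, Plod2 differed most between zones. It hydroxylates the lysines of the chain ends. In SZ its cluster (10912255) read 11.28, 11.22, 11.57 and 10.96 on replicates 1 to 4. The IDZ arrays read 12.06, 11.95, 11.89 and 11.87. The RZ arrays read 12.10, 11.96, 11.93 and 11.91. Every SZ array was below every IDZ and RZ array, whereas the IDZ and RZ ranges lay almost on top of each other. The mean was 11.26 ± 0.25 in SZ, 11.94 ± 0.08 in IDZ and 11.98 ± 0.09 in RZ (SD, n = 4 each). Plod2 was lower in SZ than in IDZ by 0.69 ± 0.11 (SE), a 1.61-fold difference with a 95% interval of 0.44 to 0.93 and a limma adjusted p = 0.000404. It was lower in SZ than in RZ by 0.72 ± 0.11 (SE), or 1.65-fold (limma adjusted p = 0.000242). IDZ minus RZ was -0.03, with a 95% interval of -0.28 to 0.21 and a limma adjusted p = 0.917. Its sign turned with some scalings, while both differences from SZ passed in each of 22 alternatives other than a test against 2-fold.

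Plod1 encodes the hydroxylase that acts on lysines inside the helix. Its cluster (10881521) read 10.73, 10.69, 10.76 and 10.34 in SZ, 11.09, 11.16, 10.88 and 10.94 in IDZ, and 11.08, 10.98, 10.83 and 10.65 in RZ. The SZ arrays lay below the IDZ arrays, and RZ overlapped both. Plod1 was lower in SZ than in IDZ by 0.39 ± 0.12 (SE), or 1.31-fold (limma adjusted p = 0.0292). This call was lost in 4 of 22 alternatives, which were median centring, plain one-way variances and the omission of IDZ replicate 1 or 2, with adjusted p from 0.0528 to 0.0942. IDZ minus RZ was 0.13 (adjusted p = 0.62) and SZ minus RZ was -0.25 (adjusted p = 0.169), and neither passed in limma.

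Plod3 encodes a hydroxylase that also adds sugars to hydroxylysine. Its cluster (10757461) read 9.34, 9.51, 9.36 and 8.76 in SZ, 9.70, 9.72, 9.58 and 9.62 in IDZ, and 10.08, 9.99, 9.72 and 9.53 in RZ. SZ replicate 4 stood well below the other SZ arrays, and the SZ arrays did not reach those of IDZ or RZ. Plod3 was lower in SZ than in RZ by 0.59 ± 0.15 (SE), or 1.5-fold (limma adjusted p = 0.0109), a call that held in each of 22 alternatives. SZ minus IDZ was -0.41 (95% interval -0.74 to -0.09), which missed the threshold with an adjusted p = 0.0665 and passed in 4 of 22 alternatives, one of them without SZ replicate 2 (adjusted p = 0.0372). The IDZ and RZ arrays overlapped, and their difference was -0.18 (adjusted p = 0.598).

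P4ha3 encodes a catalytic subunit of collagen prolyl 4-hydroxylase, whose product, 4-hydroxyproline, keeps the triple helix stable at body temperature. In SZ its cluster (10709034) read 9.61, 9.37, 9.52 and 8.84. The IDZ arrays read 10.57, 10.69, 10.63 and 10.73. The RZ arrays read 10.08, 10.29, 10.24 and 9.95. IDZ lay above RZ and RZ above SZ with no overlap of arrays between any of the zones, so P4ha3 was highest in IDZ, which combines the intermediate and deep layers. The means were 9.33 ± 0.34 in SZ, 10.66 ± 0.07 in IDZ and 10.14 ± 0.15 in RZ (SD, n = 4 each). P4ha3 was lower in SZ than in IDZ by 1.32 ± 0.14 (SE), or 2.5-fold (95% interval 1.02 to 1.63, limma adjusted p = 6.21e-06), which ranked 78 by size among the 7821 genes that were lower in SZ. It was lower in SZ than in RZ by 0.81 ± 0.14 (SE), or 1.75-fold (limma adjusted p = 0.00059).

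The step of P4ha3 from IDZ down to RZ was smaller, at 0.52 ± 0.14 (SE), or 1.43-fold (95% interval 0.21 to 0.82, limma adjusted p = 0.0418). It was lost in 11 of 23 alternatives, among them the omission of any 1 IDZ or RZ array (adjusted p from 0.058 to 0.13) and animal pairs as a random block (adjusted p = 0.0713). The sign was the same in all of them. Within the 4 pairs of animals that gave both zones, P4ha3 was higher in IDZ in 4 of 4, by 0.49, 0.40, 0.40 and 0.78. How many of all genes had 1 sign in 4 of 4 pairs was not counted, here or for the members below. The first step minus the second, (SZ minus IDZ) minus (IDZ minus RZ), was -1.84 with a 95% interval of -2.37 to -1.31. This value measures how unlike both steps are and does not by itself show a peak. For Plod2, which did not peak in IDZ, it was -0.65 (95% interval -1.08 to -0.23).

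Serpinh1 encodes the ER chaperone that binds folded procollagen. Its cluster (10723884) varied least among the members, from 12.65 to 12.79 in SZ, from 12.80 to 12.88 in IDZ and from 12.84 to 12.96 in RZ. The SZ arrays ended just below the IDZ arrays. SZ minus IDZ was -0.10 (95% interval -0.26 to 0.07, adjusted p = 0.418), IDZ minus RZ was -0.07 (95% interval -0.23 to 0.10, adjusted p = 0.725) and SZ minus RZ was -0.16 (95% interval -0.33 to 0.004, adjusted p = 0.18), and none passed in limma. With quantile normalization SZ minus IDZ turned to 0.07, and SZ minus RZ passed in 2 of 22 alternatives, those with other variance models (adjusted p = 0.0319 and 0.0147).

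Loxl1 encodes the lysyl oxidase that is best known for maintaining elastic fibres. In SZ its cluster (10917883) read 11.42, 11.44, 11.45 and 11.33. In IDZ it read 10.06, 10.14, 9.92 and 10.18, and in RZ it read 8.49, 8.78, 8.53 and 8.72. The zones were separated by gaps several times wider than the spread within any of them. The means were 11.41 ± 0.05 in SZ, 10.07 ± 0.12 in IDZ and 8.63 ± 0.14 in RZ (SD, n = 4 each). Loxl1 was higher in SZ than in IDZ by 1.33 ± 0.09 (SE), or 2.52-fold (95% interval 1.13 to 1.54, limma adjusted p = 9.81e-08). From IDZ to RZ it fell by a further 1.44 ± 0.09 (SE), or 2.72-fold (95% interval 1.24 to 1.65, limma adjusted p = 1.92e-07). The whole span from SZ to RZ was 2.78 ± 0.09 (SE), or 6.87-fold (95% interval 2.58 to 2.98, limma adjusted p = 3.42e-11).

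Both steps of Loxl1 were of like size, and the first minus the second was -0.11 with a 95% interval of -0.46 to 0.24. By size the step from IDZ to RZ ranked 44 among the 7351 genes higher in IDZ, while the step from SZ to IDZ ranked 408 among the 6479 genes higher in SZ. Loxl1 was higher in IDZ in 4 of 4 animal pairs, by 1.57, 1.36, 1.38 and 1.46. Each SZ array was above the IDZ array that held the same animal, by 1.15 to 1.52. All 3 differences passed in every alternative apart from a test against 2-fold, in which only SZ against RZ passed.

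Lox, the founding enzyme of the family, acts on both collagen and elastin. Its cluster (10804463) read 11.28, 10.89, 11.29 and 10.77 in SZ, 11.01, 11.03, 10.81 and 10.97 in IDZ, and 10.82, 10.50, 10.36 and 10.32 in RZ. RZ replicate 1 reached into the range of the other zones and the remaining RZ arrays lay below them. Lox was higher in SZ than in RZ by 0.56 ± 0.14 (SE), or 1.48-fold (limma adjusted p = 0.00762), and this held in each of 22 alternatives. SZ minus IDZ was 0.10 (95% interval -0.19 to 0.40, adjusted p = 0.646). IDZ minus RZ was 0.46 ± 0.14 (SE) with an adjusted p = 0.0619, so it missed the threshold. Lox was higher in IDZ in 4 of 4 animal pairs, by 0.20 to 0.65. With the pairs as a fixed block and no SZ arrays this difference passed (limma adjusted p = 0.0105). It passed in 9 of 23 alternatives, also without SZ replicate 4 (adjusted p = 0.0186) or RZ replicate 1 (adjusted p = 0.0289).

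Loxl2, Loxl3 and Loxl4 form the branch of the family with scavenger receptor domains. Loxl2 is known to crosslink collagen of basement membranes. Its cluster (10781304) read 10.54, 10.64, 10.48 and 10.03 in SZ, 10.62, 10.59, 10.53 and 10.46 in IDZ, and 11.10, 11.08, 10.87 and 10.62 in RZ. Every RZ array lay above every IDZ array, RZ replicate 4 only just, and that array fell inside the SZ range. Loxl2 was higher in RZ than in SZ by 0.50 ± 0.13 (SE), or 1.41-fold (limma adjusted p = 0.0147), and this was lost without RZ replicate 1 (adjusted p = 0.0563) or RZ replicate 2 (adjusted p = 0.0515). IDZ minus RZ was -0.37 ± 0.13 (SE), which missed the threshold (adjusted p = 0.132) although RZ was higher in 4 of 4 animal pairs, by 0.16 to 0.49. With the pairs as a fixed block and no SZ arrays it passed (limma adjusted p = 0.019), as it did without SZ replicate 4 (adjusted p = 0.0239). SZ and IDZ overlapped, and their difference of -0.13 (adjusted p = 0.551) came to 0.00 without SZ replicate 4.

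Loxl3 is a lysyl oxidase needed for the palate and the spine. Its cluster (10856545) read 11.23, 11.35, 11.80 and 11.11 in SZ, 11.96, 11.92, 11.81 and 11.69 in IDZ, and 11.99, 12.004, 11.65 and 11.48 in RZ. SZ replicate 3 lay inside the IDZ range and the other SZ arrays below it. Loxl3 was lower in SZ than in IDZ by 0.47 ± 0.15 (SE), or 1.38-fold (limma adjusted p = 0.0361), a call lost in 9 of 22 alternatives, including the omission of SZ replicate 1, 2 or 4 or IDZ replicate 1, 2 or 3 (adjusted p from 0.0524 to 0.102). SZ minus RZ was -0.41 (adjusted p = 0.0745) and IDZ minus RZ was 0.06 (adjusted p = 0.874), and neither passed in limma. SZ minus RZ passed without SZ replicate 3 (adjusted p = 0.0089) or RZ replicate 4 (adjusted p = 0.0373).

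Loxl4 was flat across the articular zones, with 8.91, 8.91, 9.01 and 8.84 in SZ and 8.95, 9.0, 8.94 and 9.02 in IDZ (cluster 10715416). In RZ it read 9.42, 9.60, 9.27 and 8.89, so 3 RZ arrays exceeded every articular array and RZ replicate 4 fell among them. SZ minus IDZ was -0.06 (95% interval -0.32 to 0.20, adjusted p = 0.776). Loxl4 was higher in RZ than in SZ by 0.38 ± 0.12 (SE), or 1.30-fold (limma adjusted p = 0.0419). This call was lost in 15 of 22 alternatives, among them the omission of any IDZ array, of SZ replicate 1, 2 or 4, or of RZ replicate 1, 2 or 3, with adjusted p up to 0.149. IDZ minus RZ was -0.31 (adjusted p = 0.166), and without RZ replicate 4 it was -0.45 and passed (adjusted p = 0.0191).

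In the order of zone means, SZ was lowest for 8 of the 10 genes, with Loxl1 and Lox the exceptions. IDZ was highest for Plod1, P4ha3 and Loxl3, and RZ was highest for Plod2, Plod3, Serpinh1, Loxl2 and Loxl4. Neighbours in that order both passed the test for P4ha3 and Loxl1 alone among the members. For the other members one or both of the neighbouring steps did not pass.

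**Figure D3:**
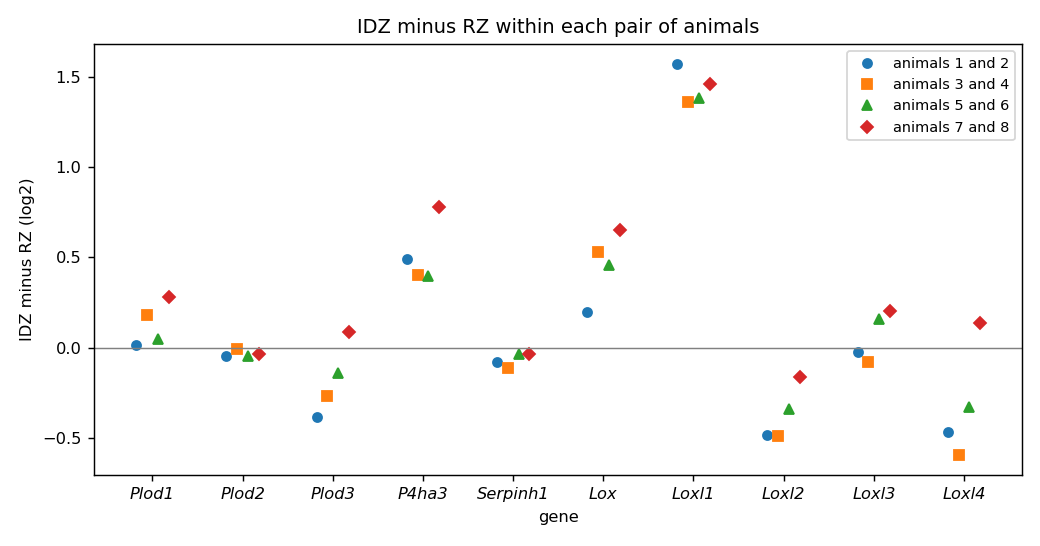
IDZ minus RZ (vertical axis, log2) of each of the 10 genes within the 4 pairs of animals that gave an array of both zones, with 1 symbol per pair. All 4 pairs lay above 0 for P4ha3, Lox, Loxl1 and Plod1 and all 4 below 0 for Loxl2, Plod2 and Serpinh1, with Plod2 between -0.05 and -0.01. Among these genes P4ha3 and Loxl1 alone passed between IDZ and RZ in the main limma fit. The share of all genes with 4 pairs of 1 sign was not counted.

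Single arrays moved many of the members together. SZ replicate 4 was the lowest of its zone for 10 of 10 members, with a mean deviation of -0.28 from the zone means, and all named genes with a mean log2 value above 9 deviated by -0.27 on that array. It also had the narrowest interquartile range of log2 values of the 12 arrays, 2.24 against 2.5 to 2.91 on the others. RZ replicate 4 was the lowest of its zone for 9 of 10 members, with a mean deviation of -0.19, while all named genes above 9 deviated by -0.02. With both arrays left out, an alternative added after the data were seen, the members passed were 1 in SZ and 4 in IDZ for the first comparison, 2 in IDZ and 2 in RZ for the second, and 2 in SZ and 5 in RZ for the third. The 2 in RZ were Loxl2 (adjusted p = 0.0035) and Loxl4 (adjusted p = 0.00496). Both genes were lowest in RZ on replicate 4, so leaving that array out had to raise their RZ means. These 2 calls therefore give no support of their own.

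**Figure D4:**
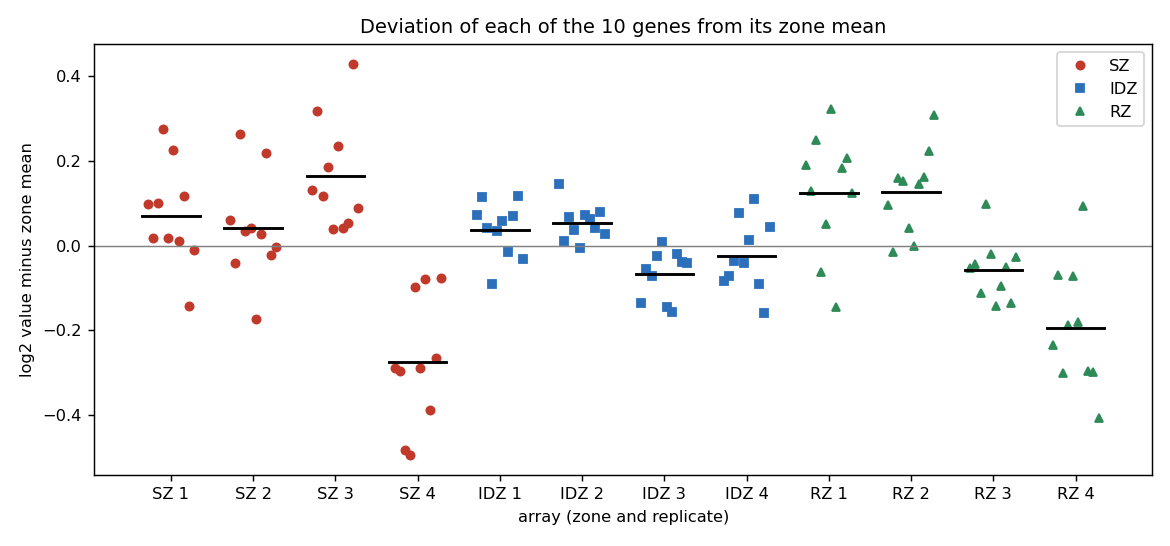
Deviation of each of the 10 genes from its zone mean (vertical axis, log2) on each of the 12 arrays (horizontal axis, zone and replicate), with a bar at the mean of the 10. All 10 genes lay below 0 on SZ replicate 4, and 9 did on each of IDZ replicate 3, RZ replicate 3 and RZ replicate 4.

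The counts of lists from here on are to be read beside the shares of named genes given above for each comparison. Those shares are at an adjusted p under 0.05. Counts at an unadjusted p have no such share beside them and cannot show an excess over other genes. Of named genes, 17.0% passed as higher in SZ than in IDZ and 9.56% as higher in IDZ. Of 28 measured genes of collagen biosynthesis outside the 10 members, 5 passed as higher in SZ and 9 as higher in IDZ. Their median for SZ minus IDZ was -0.08, as it was over all clusters. Between IDZ and RZ 3 were higher in IDZ and 0 in RZ, with 7 higher in RZ at an unadjusted p under 0.05, 1 with plain one-way variances and 4 with animal pairs as a fixed block. Without SZ replicate 4, 8 were higher in SZ than in IDZ and 6 were higher in RZ than in IDZ. Between SZ and RZ 6 were higher in SZ and 10 in RZ. Of the 17 genes of ER hydroxylation, isomerisation and glycosylation, 7 stood higher in IDZ than in SZ and 2 lower, while 9 stood higher in RZ than in SZ and 1 lower. Between IDZ and RZ 0 of the 17 passed in limma, and 4 were higher in RZ at an unadjusted p under 0.05. P4ha2, another catalytic subunit of prolyl 4-hydroxylase, was lower in SZ than in IDZ by 0.99 ± 0.16 (SE, limma adjusted p = 0.000347). P3h4, a partner of the helical lysyl hydroxylase, was lower in SZ than in RZ by 0.98 ± 0.11 (SE, limma adjusted p = 8.53e-06). Fkbp7, an ER prolyl isomerase, went the other way and was higher in SZ than in IDZ by 1.10 ± 0.11 (SE, limma adjusted p = 3.17e-06).

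Of the 5 genes of export from the ER, 1 was higher in each of SZ and IDZ, and Creb3l1, a transcription factor of procollagen secretion, was higher in SZ than in IDZ by 1.05 ± 0.13 (SE, limma adjusted p = 3.1e-05). Of the 6 genes of propeptide cleavage, SZ exceeded IDZ for 2, IDZ exceeded SZ for 1, and SZ exceeded RZ for 4. Adamts2, which removes the amino-terminal propeptide, was higher in SZ than in IDZ by 1.62 ± 0.13 (SE, limma adjusted p = 4.75e-07). Its relative Adamts3 was higher in IDZ than in RZ by 0.72 ± 0.10 (SE, limma adjusted p = 0.000258). Pcolce, which speeds carboxyl-terminal cleavage, was higher in IDZ than in RZ by 0.81 ± 0.11 (SE, limma adjusted p = 0.000383).

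The substrates were counted in the same comparisons. Of 10 fibrillar collagen genes, SZ exceeded IDZ for 6 and IDZ exceeded SZ for 3. IDZ stood above RZ for 4, and SZ stood above RZ for 6 and below it for 3. The 3 that were lower in SZ were Col11a1, Col11a2 and Col27a1 in both comparisons (named after their values were seen). Col2a1, the type II chain, differed little, with means of 13.66 in SZ, 13.84 in IDZ and 13.75 in RZ. Its SZ minus IDZ was -0.19 (limma adjusted p = 0.111), and its other differences did not pass either. Col3a1, the type III chain, stepped down by 1.92 ± 0.14 from SZ to IDZ and by 1.97 ± 0.14 from IDZ to RZ (SE, limma adjusted p = 1.69e-07 and 4.99e-07). Col1a2, a type I chain, stepped down by 1.92 ± 0.27 and by 1.35 ± 0.27 (SE, limma adjusted p = 8.56e-05 and 0.00635), the latter with an adjusted p = 0.0556 under plain one-way variances. Of 17 genes of elastic fibres and of proteins that bind lysyl oxidases or fibril surfaces, 10 were higher in SZ and 1 in IDZ, with a median SZ minus IDZ of 0.70. Among them 7 were higher in IDZ than in RZ, and 12 were higher in SZ and 1 in RZ. Postn, which binds collagen and helps lysyl oxidase activation, stepped down by 3.10 ± 0.18 and by 2.46 ± 0.18 (SE, limma adjusted p = 1.57e-08 and 4.19e-07). Mfap4, an elastic fibre protein, stepped down by 1.74 ± 0.09 and by 1.5 ± 0.09 (SE, limma adjusted p = 5.21e-09 and 5.68e-08).

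**Figure D5:**
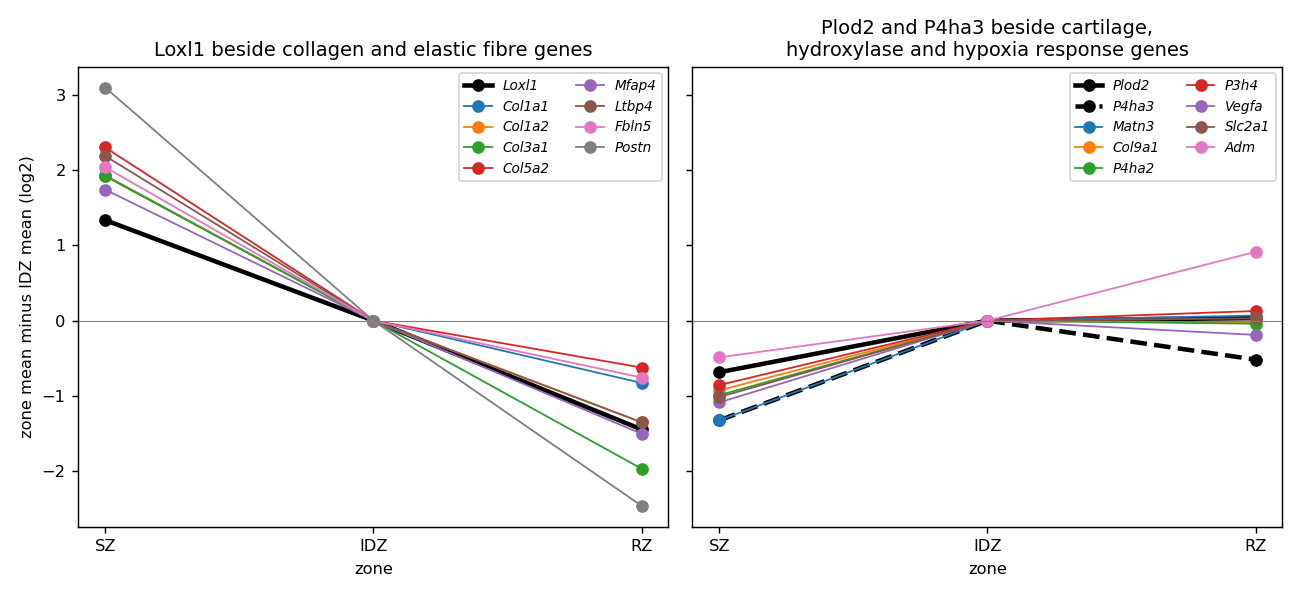
Mean of each zone minus the IDZ mean (vertical axis, log2, 4 arrays per zone) for Loxl1 beside named collagen and elastic fibre genes on the left, and for Plod2 and P4ha3 beside named cartilage, hydroxylase and hypoxia response genes on the right. The genes drawn are a selection, so their likeness to the members is not a result. Not drawn are the 3 fibrillar collagen genes that passed as higher in IDZ than in SZ. Efemp2, the elastic fibre gene that also passed as higher in IDZ than in SZ (named after its value was seen), is left out too. Epas1, a hypoxia response gene that was highest in SZ, is not drawn either. The drawn lines on the left fell from SZ to RZ, as Loxl1 did by 2.78. Those drawn on the right were all lowest in SZ, and P4ha3 fell again towards RZ by 0.52.

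By Pearson correlation over the 12 arrays, among 928 named genes with zone means that spanned at least 1 and a mean above the median cluster, Ptprg (r = 0.998), Prrx1 (r = 0.993) and Mfap4 (r = 0.993) were most alike to Loxl1. Sgms2 (r = 0.968), Sfrp1 (r = 0.962) and Tnnt3 (r = 0.959) were most alike to P4ha3. These are descriptions over arrays that fall into 3 zones, which such a value mostly follows, and the arrays share dissections and processing.

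Of 20 hypoxia response genes outside the members, which include P4ha1 and P4ha2 of the list above, 2 were higher in SZ and 10 in IDZ, with a median SZ minus IDZ of -0.37. Between IDZ and RZ 1 was higher in IDZ and 2 in RZ, and between SZ and RZ 2 were higher in SZ and 12 in RZ. Vegfa, the vascular growth factor, was lower in SZ than in IDZ by 1.09 ± 0.16, and Slc2a1, a glucose transporter, by 1.02 ± 0.18 (SE, limma adjusted p = 0.000143 and 0.000622). Epas1, an oxygen-regulated subunit of hypoxia-inducible factor, ran the other way and was higher in SZ than in IDZ by 0.85 ± 0.13 (SE, limma adjusted p = 0.000167). The 10 genes lower in SZ than in IDZ stand beside Plod2, whose window holds hypoxia cores, and the part of oxygen in the difference of Plod2 was not tested.

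Of 18 genes of ER folding and stress, 3 were higher in SZ than in IDZ, 3 were higher in RZ than in IDZ and 6 were higher in RZ than in SZ. At an unadjusted p under 0.05 in limma, 11 were higher in RZ than in IDZ and 0 were higher in IDZ. The share of all named genes at that threshold was not counted. The median of the 18 for IDZ minus RZ was -0.29, beside 0.03 over all clusters. Hyou1, an ER chaperone, was higher in RZ than in SZ by 0.69 ± 0.12 (SE, limma adjusted p = 0.000663). Of 11 genes that supply copper, ascorbate and iron, on which the oxidases and hydroxylases depend, 1 was higher in SZ and 1 in IDZ, 1 was higher in IDZ and 1 in RZ, and 2 were higher in SZ and 2 in RZ. Slc31a2, a copper transporter, was higher in SZ than in IDZ by 0.95 ± 0.14, and Atp7b, a copper-exporting ATPase, was lower by 0.90 ± 0.14 (SE, limma adjusted p = 0.000178 and 0.000283).

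Markers of other cells were mostly higher in SZ. Of the endothelial markers 7 of 7 were higher in SZ than in IDZ, and the mean over these markers ran from 9.12 to 9.81 in SZ, from 6.50 to 7.07 in IDZ and from 6.29 to 6.65 in RZ. Between IDZ and RZ 0 of 7 passed in limma, and 5 were higher in IDZ at an unadjusted p under 0.05. Of the tendon and fibrous tissue markers 5 of 5 were higher in SZ, with means of 9.90 to 10.64 in SZ, 6.22 to 6.94 in IDZ and 5.84 to 6.03 in RZ, and 1 of 5 (Dpt, named after its value was seen) was higher in IDZ than in RZ. Macrophage markers (8 of 8), pericyte and smooth muscle markers (6 of 7, with 1 higher in IDZ), adipocyte markers (4 of 4), osteoclast markers (2 of 3) and osteoblast markers (1 of 5, with 1 higher in IDZ) were also higher in SZ. Erythroid markers passed in 0 of 3 and skeletal muscle markers were higher in IDZ in 1 of 5. Some of these markers also moved between IDZ and RZ, where Loxl1 and P4ha3 passed. Pdgfrb, a pericyte marker, was higher in IDZ by 0.80 ± 0.11 as 1 of 7, Tnnt3, a skeletal muscle troponin, by 0.55 ± 0.12 as 1 of 5, and Ibsp, an osteoblast gene, was higher in RZ by 1.55 ± 0.39 as 1 of 5 (SE, limma adjusted p = 0.000228, 0.00964 and 0.0276). Over the arrays the mean of the 7 pericyte and smooth muscle markers ran from 7.65 to 8.10 in IDZ and from 7.58 to 7.82 in RZ. The part of these cells in the differences between any of the zones was not tested.

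The zone labels were set against zone markers. Prg4, the lubricant of the superficial zone, was higher in SZ than in IDZ by 2.47 ± 0.36 and in IDZ than in RZ by 4.62 ± 0.36 (SE, limma adjusted p = 0.000126 and 1.13e-06). Prg4 read 8.86 in IDZ replicate 4 and 10.61 to 10.95 on the other IDZ arrays. Of 6 cartilage matrix genes 5 were higher in IDZ than in SZ and 5 higher in RZ than in SZ, and of 3 resting zone markers 2 were higher in RZ and 1 in IDZ. Of 3 hypertrophic markers 2 were higher in IDZ than in SZ and 1 higher in RZ than in IDZ.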

How the data were processed

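Values were the deposited log2 expression values of 12 Affymetrix Rat Gene 1.0 ST arrays, which the authors computed from the scans with RMA in Partek Genomics Suite 6.6. RMA subtracts background, makes the arrays' distributions equal by quantiles and summarises the probes of a transcript cluster by median polish. The deposited values were nevertheless not equal in distribution. Array medians ran from 6.757 to 6.898 and interquartile ranges from 2.235 to 2.907. No further normalization was applied, and the scans were not processed again. All 12 columns of values were used and 0 were left out. Genes were named from the platform annotation, which gives 1 symbol for 15068 of 27342 clusters. Clusters with several symbols (323) or none (11951) were tested but not named.

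The fit was made with limma 3.58.1 in R 4.3.3. It gave each zone a mean, pooled and moderated the variances of all 12 arrays, and took p, with Benjamini-Hochberg adjustment across the clusters of each comparison, as passed under 0.05. Intervals are 95% intervals of that fit. A one-way comparison with a 2-fold minimum is what the study's methods describe, and it was counted too. The fit was tested on simulated data. Animals differ between SZ arrays and partly recur between zones, and p measures the spread between these samples. With 4 arrays per zone, the array number limits the precision.

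IDZ and RZ arrays of the same number share animals, per the labels. Their deviations from the zone means over all clusters correlated at 0.018, 0.022, 0.027 and 0.205 in the 4 pairs, and the consensus correlation within animal pairs was -0.141. The study's methods use no block, so the block of animal pairs was fitted as an alternative, fixed and random. The other alternatives were centring each array on its median or 75th percentile, quantile normalization, leaving out the dimmest clusters, trended and robust or plain variances, a fit of the 2 zones alone, a test against 2-fold (treat), every cluster by itself, and leaving out each array. Centring on the brighter clusters and leaving out SZ replicate 4 with RZ replicate 4 were added after the data were seen.

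The members, the lists of partners and markers, and the alternatives were chosen with earlier results of these data known. Outside the members, up to 4 genes per list and comparison with the largest difference among those that passed could be named, 2 per other cell type by level, and the 3 most alike to a member whose zone means spanned at least 1. The motifs and the Plod2 promoter were chosen after values were seen. Promoters are those of RefSeq on GRCr8. The array files used here give no coordinates, so none are given for the clusters. Of the list symbols, 22 had no cluster of their own and were not analysed here.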

Additional observations from a re-analysis of the deposited data

Results flagged for a closer look

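Plod1 on SZ replicate 4 stood apart from its zone. It read 10.34, the nearest other SZ array read 10.69, and this gap was 0.831 of the range of the 4 SZ arrays. It was 1 of 30 groups of 4 arrays examined over the 10 genes, and chance alone marks about 1 in 20 such groups. The same array was the lowest of its zone for 10 of 10 genes. Without it, SZ minus IDZ of Plod1 was -0.29, which passed in limma (adjusted p = 0.0372).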

How the results depend on the processing

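Loxl1 in all 3 comparisons, Plod2 and P4ha3 against SZ in both, and Plod3 and Lox between SZ and RZ passed under every alternative other than those that ask for 2-fold. Signs turned for values near 0. Plod2, IDZ minus RZ, was 0.0014 with quantile normalization, 0.0218 with centring on the 75th percentile, 0.0219 with centring on the brighter clusters and 0.0093 without RZ replicate 1, in a range of -0.072 to 0.0093 with 1 array left out. Serpinh1, SZ minus IDZ, was 0.0654 with quantile normalization. Without SZ replicate 4, and with both replicates 4 left out, Loxl2, SZ minus IDZ, was 0.0018 (-0.1999 to 0.0018 with 1 array left out). Loxl3, IDZ minus RZ, was -0.0352 without RZ replicate 4 and with both left out (-0.0352 to 0.1384 with 1 array left out). Of 4 members higher in IDZ than in SZ, 2 passed with median centring or plain variances, 1 with a 2-fold minimum and 0 with treat. Of 2 higher in IDZ than in RZ, 1 passed with median centring, plain variances, the random replicate block or a 2-fold minimum and 0 with treat. With the fixed replicate block these were 3, and 1 member was higher in RZ, as with the 2 zones alone, against 2 with both replicates 4 left out. In treat 0 members were higher in SZ than in IDZ. Between SZ and RZ, 1 member was higher in SZ with 2-fold or treat and 0 in RZ. Leaving out 1 array gave 2 to 4 members higher in IDZ than in SZ, 1 to 3 higher in IDZ than in RZ, 0 to 1 higher in RZ than in IDZ, and 3 to 6 higher in RZ than in SZ.

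Of the 28 biosynthesis partners, those higher in SZ than in IDZ were 3 with 2-fold, 1 with treat, 8 with both replicates 4 left out and 4 to 8 with 1 array left out, and those higher in IDZ were 0 with 2-fold or treat. Those higher in IDZ than in RZ were 0 with 2-fold or treat. Those higher in RZ than in IDZ were 1 without the dimmest clusters or with plain variances, 2 with quantile normalization or trended variances, 4 with the fixed replicate block, 5 with the 2 zones alone or both replicates 4 left out, and 0 to 6 with 1 array left out. Those higher in SZ than in RZ were 3 with 2-fold and 2 with treat, and those higher in RZ were 0 with both. Taking every cluster by itself changed nothing for the members, which have 1 cluster each. Scaling moved the median of all clusters to -0.13 for SZ minus IDZ and 0.09 for IDZ minus RZ when arrays were centred on the 75th percentile. With 4 arrays per zone, differences of the size seen for Loxl4 or Loxl3 lie at the edge of what passes. Leaving out an array of a zone cannot move the difference between the other zones, and changes only its SE and p. Plod1, IDZ minus RZ, stayed at 0.1324 without SZ replicate 4, while its SE went from 0.1196 to 0.0962. The cause of the other lost or gained calls was not tested. The fits with blocks of animal pairs, of which the fixed one left out SZ, changed the calls of 4 members and no others. These were Lox, Loxl2, Loxl3 (SZ minus RZ, limma adjusted p = 0.0471 with the random block) and P4ha3.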
